A study of Mus musculus with 27 samples.

Results

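Firre and 4933407K13Rik, the transcript of the Dxz4 locus, are the noncoding genes of the 2 tandem-repeat loci tied to the folding of the inactive X chromosome. They were taken by gene name and are 2 of the 276 X-linked genes in either of 2 deposited tables of allelic ratios. Both members stand in both tables, the Spen table with 270 genes in 17 libraries and the CIZ1 table with 254 genes in 10 libraries. The tables share 248 genes and 4 libraries, whose values are identical, and together hold 23 libraries in 12 groups.

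The measurement was chromatin-associated RNA, the fraction that stays with chromatin after nuclei are lysed and that is rich in RNA still being made. All cells were female mouse embryonic stem (ES) cells of a 129S X Cast cross, or neural precursor cells (NPC) derived from them. In every group, controls included, a doxycycline-inducible TetOn promoter stands in place of the Xist promoter on the 129S X, and Bgl stem-loops were added at the Xist 3' end. Doxycycline, at 1.0 to 1.5 µg/mL, therefore induces Xist on the 129S X. The line labelled SpenKO, called SpenRRM in the series text, was sampled at 0, 3 and 24 h of doxycycline with 2, 1 and 2 libraries. SPOCmut, which carries a mutated SPOC domain of Spen, was sampled at 24 h and 0 h in 3 clones named C10, C2 and G1. The CIZ1 knockout (CIZ1 KO) was sampled at 24 h and 0 h with 2 libraries each, and as NPC at day 30 with 1 library. The parental line (WT) was sampled at 0, 3 and 24 h with 2 libraries each, and as NPC at day 30 with 1 library. No dose or time of doxycycline is stated for the NPC cultures in the sources used here. The sample titles carry the tag BglHalo for SpenKO, CIZ1 KO and WT, but not for SPOCmut. SpenKO, CIZ1 KO and WT are each given as 1 line, so genotype and line cannot be told apart, and the labels do not say whether replicates were separate cultures. The p-values thus rest on differences between libraries of a group that may be technical only. ES cells were grown on mouse fibroblast feeders. The tables hold ratios without expression levels, so neither the cell types nor the loss of Spen or CIZ1 could be checked by marker or targeted gene.

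Firre is known as a long noncoding RNA with a repeated RNA domain that is made from a CTCF-rich locus, and as a gene that escapes X inactivation in several mouse tissues. Dxz4 is a CTCF-bound macrosatellite that lies at the hinge between the megadomains of the inactive X and makes long-range contacts with the Firre locus. Xist RNA coats the chromosome it is made from, Spen binds Xist through its RNA recognition motifs and recruits corepressors through its SPOC domain, and CIZ1 is a nuclear matrix protein that binds Xist RNA.

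Both loci lie on the minus strand of chromosome X and are 25.2 Mb apart. Firre (ENSMUSG00000085396.7) spans 50555744 to 50635258 of build mm10 (GRCm38) in the deposited coordinates, 52.9 Mb from Xist. 4933407K13Rik (ENSMUSG00000087396.7), for which RefSeq gives the synonym Dxz4, spans 75725458 to 75764699, 27.7 Mb from Xist. GENCODE classes both as processed transcripts and RefSeq as lncRNA, and no other annotated gene overlaps either interval. The longest Firre transcript has 5555 bases in 20 exons, and that of 4933407K13Rik has 4364 bases in 11 exons.

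Repeats are visible in the spliced RNA of both genes. Of all 20-base words in the longest transcript, 31.9% occur more than once in Firre and 24.0% in 4933407K13Rik. Among 181 lncRNA genes of the X, the members included, 21.0% have any repeated word. Only Firre itself (1 gene, 0.552%) reaches the share of Firre. The share of 4933407K13Rik is reached by 3 genes (1.66%), counting itself and Firre. In Firre, 7 exons of 154 to 155 bases are 95.5% to 98.7% identical in pairs (median 96.8%). In 4933407K13Rik, 7 exons of 163 bases are 97.5% to 100% identical (median 99.4%). One repeat exon of each gene, from GENCODE transcripts on GRCm38, is shown because the repeated unit is the feature that these loci have in common. They are exon 4 of Firre at chrX:50615361-50615515 and exon 2 of 4933407K13Rik at chrX:75760232-75760394, both on the minus strand. Capitals mark the positions at which the copies of equal length differ, 7 of 155 among 4 Firre exons and 5 of 163 among 7 exons of 4933407K13Rik.
Firre exon: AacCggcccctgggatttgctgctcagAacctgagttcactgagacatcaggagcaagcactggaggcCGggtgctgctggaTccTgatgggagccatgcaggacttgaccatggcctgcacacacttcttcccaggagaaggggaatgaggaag
4933407K13Rik exon: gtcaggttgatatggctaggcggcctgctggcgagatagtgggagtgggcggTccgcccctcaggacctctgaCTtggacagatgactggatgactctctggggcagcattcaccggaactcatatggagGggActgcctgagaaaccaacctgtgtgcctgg
How reads that match several of these exons were handled is not given in the sources used here.

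The promoters are shown because both genes were called lower in WT at 3 h and at 24 h. Each run holds 250 bases before and 50 after the start of the gene, from RefSeq GRCm38.p6 on the minus strand. The windows are chrX:50635272-50635571 for Firre and chrX:75764650-75764949 for 4933407K13Rik. That of Firre lies wholly beyond the deposited interval, which ends at 50635258, and spans the GENCODE start of the gene at 50635321. Capitals mark GGGCGG, the GC box bound by Sp1-family factors.
Firre promoter: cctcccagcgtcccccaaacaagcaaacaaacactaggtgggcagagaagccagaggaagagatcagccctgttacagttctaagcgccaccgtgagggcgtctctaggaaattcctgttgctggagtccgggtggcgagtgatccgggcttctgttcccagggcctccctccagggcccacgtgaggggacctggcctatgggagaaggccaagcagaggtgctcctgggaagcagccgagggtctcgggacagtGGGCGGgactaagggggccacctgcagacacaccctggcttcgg
4933407K13Rik promoter: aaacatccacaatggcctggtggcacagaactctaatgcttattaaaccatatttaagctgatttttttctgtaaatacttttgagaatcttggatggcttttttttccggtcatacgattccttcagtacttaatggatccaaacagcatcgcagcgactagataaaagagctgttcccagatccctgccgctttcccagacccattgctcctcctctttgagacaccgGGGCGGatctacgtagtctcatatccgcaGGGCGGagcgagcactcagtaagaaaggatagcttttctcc
GGGCGG, searched on both strands, occurs 1 time in the Firre window and 2 times in that of 4933407K13Rik, and in 35.7% of all 32851 promoters of that length. The windows hold 12 and 11 CpG (median of all promoters 7), with a GC content of 62.7% for Firre and 45.3% for 4933407K13Rik (median 52.7%). TATAAA (13.6% of all promoters), the YY1 word GCCATNTT (6.05%) and a CTCF consensus word (0.0365%) were searched the same way and have no match in either window, which says only that these letters are absent there. The GGGCGG matches therefore overlap no other motif searched.

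The deposited ratio is read here as the 129S share of the reads that could be assigned to an allele. Which allele forms the numerator is nowhere stated, but Xist, inducible on 129S, lies between 0.933 and 0.999 in all 23 libraries. The median gene lies between 0.0546 and 0.523 per library. The number of reads behind a ratio is unknown, so no counting interval is given. A lower 129S share can come from less RNA of the 129S X or more RNA of the Cast X, and these cannot be told apart.

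Before induction Firre stood high among X genes in every line, while the place of 4933407K13Rik varied. Firre had ratios of 0.631 and 0.626 in the WT libraries at 0 h, above 92.6% of the 270 genes in each. 4933407K13Rik had 0.537 and 0.504, with 68.1% and 49.3% of genes below it. Across the mutant lines at 0 h, Firre lay between 0.641 and 0.662, above 87.8% to 94.4% of genes. 4933407K13Rik lay between 0.402 and 0.562, with 76.3% and 58.5% of genes below it in SpenKO, 38.9%, 45.2% and 24.1% in SPOCmut clones C10, C2 and G1, and 29.9% and 10.6% in CIZ1 KO. At 0 h libraries of a group differed more for 4933407K13Rik than for Firre. The SD was 0.0262 against 0.00514 in SpenKO, 0.0274 against 0.00727 in SPOCmut, 0.0521 against 0.00685 in CIZ1 KO and 0.0236 against 0.00383 in WT. This did not hold in SPOCmut at 24 h, with 0.00567 against 0.00745.

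**Figure D1:**
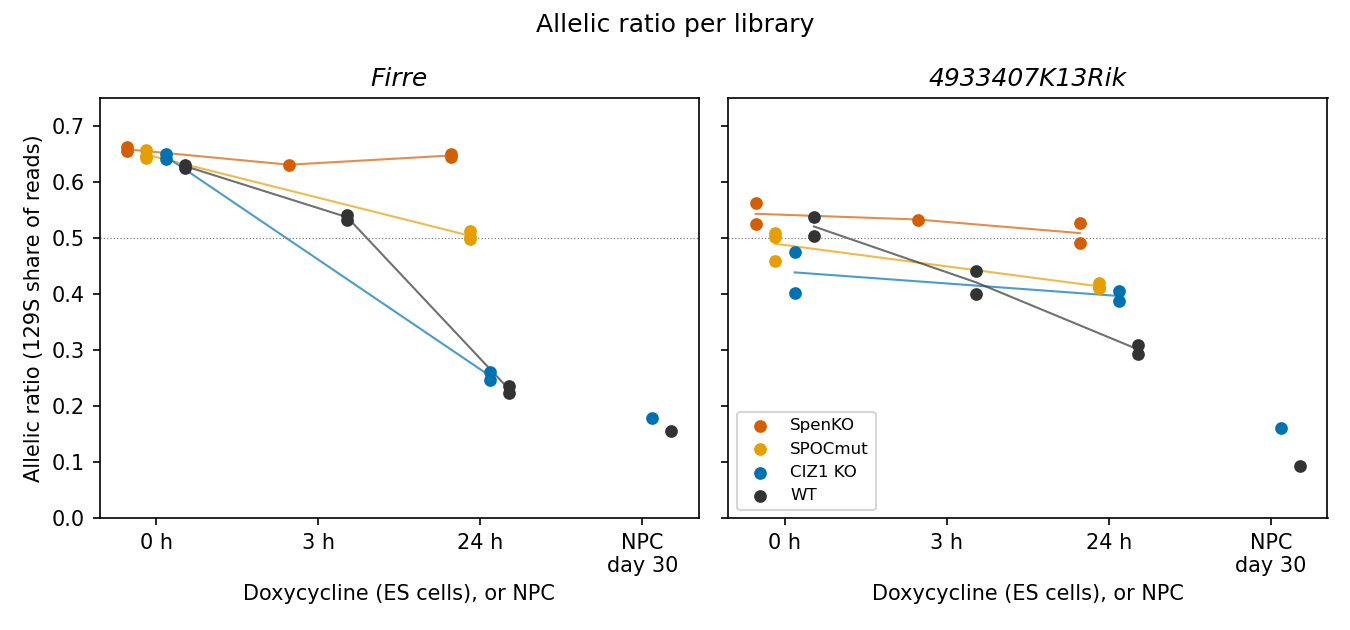
Allelic ratio (vertical axis, 129S share of allele-assigned reads) of Firre (left) and 4933407K13Rik (right) in each of 23 libraries, by hours of doxycycline or as NPC (horizontal axis); points are libraries, lines join group means and the dotted line marks equal shares. At 24 h the Firre points of CIZ1 KO (0.261 and 0.247) lie near those of WT (0.236 and 0.223), while those of 4933407K13Rik (0.406 and 0.388) lie above those of WT (0.293 and 0.309).

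Firre lost most of its 129S share within 24 h of Xist induction in WT, and 4933407K13Rik lost an amount close to that of the median X gene. Firre had 0.236 and 0.223 in the WT libraries at 24 h, against 0.631 and 0.626 at 0 h. 4933407K13Rik had 0.293 and 0.309 at 24 h, against 0.537 and 0.504 at 0 h. The 24 h and 0 h libraries did not overlap for either gene, nor, in the same direction, for 93.7% of all genes. The change in ratio was -0.399 ± 0.00971 (SE) for Firre (limma across all 270 genes, adjusted p = 1.49e-10) and -0.219 ± 0.0218 for 4933407K13Rik (limma, adjusted p = 3.36e-06). A lower ratio was the rule on this chromosome: 88.9% of genes were called lower, with a median change over all genes of -0.197. Against that background Firre had the change ranked 3 of 270 counted from the most negative, and 4933407K13Rik ranked 111.

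Because Firre started higher, the change was also expressed as odds, the ratio of 129S to Cast reads. At 24 h Firre kept 17.6% of its 0 h odds in WT and 4933407K13Rik kept 39.7%, beside a median gene at 41.8%. On this scale Firre ranked 22 and 4933407K13Rik 121 among 268 genes ordered from the least kept. The rank of Firre is thus less extreme on the odds scale than as a difference of ratios.

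At 3 h, when most X genes were not yet called, both members had fallen in WT. Firre had 0.541 and 0.533 at 3 h, against 0.631 and 0.626 at 0 h. 4933407K13Rik had 0.441 and 0.401 at 3 h, against 0.537 and 0.504 at 0 h. Neither gene's 3 h libraries overlapped those at 0 h, and 37% of all genes were likewise lower in each 3 h library than in each at 0 h. The changes were -0.0912 ± 0.00971 for Firre (limma, adjusted p = 7.77e-05) and -0.0997 ± 0.0218 for 4933407K13Rik (limma, adjusted p = 0.00703). Of all genes 17% were called lower and 5.19% higher at 3 h, with a median change of -0.0205, and the members ranked 37 and 31 of 270 from the most negative. Fitted on the 0 h and 3 h libraries alone, neither passed, with adjusted p of 0.0624 for Firre and 0.108 for 4933407K13Rik. The call for 4933407K13Rik also ended without the first 0 h library (change -0.0830, limma adjusted p = 0.0599) and without the second 3 h library (-0.0796, limma adjusted p = 0.0541).

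Most of the change of Firre came after 3 h. Between 3 h and 24 h Firre changed by -0.308 ± 0.00971 (limma, adjusted p = 2.26e-09, rank 25 of 270) and 4933407K13Rik by -0.120 ± 0.0218 (limma, adjusted p = 0.000403, rank 205), while 85.6% of genes were called lower and 0.37% higher. The odds of Firre at 3 h were 68.6% of those at 0 h and the odds of 4933407K13Rik 66.9%, both below the median gene at 92.0%.

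The gap between the members, the Firre ratio minus the 4933407K13Rik ratio within a library, was positive in WT until 3 h and negative at 24 h. In WT it was 0.0937 and 0.122 at 0 h, 0.100 and 0.132 at 3 h, and -0.0575 and -0.0858 at 24 h. The gap at 24 h averaged -0.0716 ± 0.0200, against 0.108 ± 0.0198 at 0 h (SD, n = 2 each), a difference of -0.179 with a two-sided exact permutation p of 0.33, the smallest that 2 against 2 allows.

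In SpenKO neither member was called after 24 h. Firre had 0.645 and 0.649 in SpenKO at 24 h, against 0.662 and 0.655 at 0 h. 4933407K13Rik had 0.491 and 0.527 at 24 h, against 0.562 and 0.525 at 0 h. The 24 h libraries lay narrowly below those at 0 h for Firre, as for 27.4% of all genes, and the groups overlapped for 4933407K13Rik. The changes were -0.0111 (95% interval -0.0326 to 0.0104, limma adjusted p = 0.844) and -0.0345 (-0.0827 to 0.0137, limma adjusted p = 0.831). Of all genes 0.741% were called lower in SpenKO, with a median change of -0.00937. The single SpenKO library at 3 h had 0.631 for Firre and 0.533 for 4933407K13Rik.

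The response itself differed between SpenKO and WT for both genes. The change over 24 h in SpenKO minus that in WT was 0.388 ± 0.0137 for Firre (limma interaction contrast, adjusted p = 7.52e-09) and 0.185 ± 0.0308 for 4933407K13Rik (adjusted p = 0.000301). Of all genes 76.7% had a response called higher in SpenKO. At 3 h the same difference was 0.0637 ± 0.0154 for Firre (limma, adjusted p = 0.0537) and 0.0895 ± 0.0345 for 4933407K13Rik (limma, adjusted p = 0.187), neither past the threshold of 0.05, with 2.59% of genes called higher. The SpenKO arm of that contrast is 1 library, assumed to vary like the other groups.

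In SPOCmut both members fell, by less than in WT. Firre had 0.498, 0.512 and 0.501 at 24 h in clones C10, C2 and G1, against 0.657, 0.646 and 0.643 at 0 h. 4933407K13Rik had 0.420, 0.410 and 0.411 at 24 h, against 0.501, 0.510 and 0.459 at 0 h. Each clone was lower at 24 h for both genes, and the groups did not overlap, as for 60% of all genes in that direction. The changes were -0.145 ± 0.00793 for Firre (limma, adjusted p = 3.86e-07, rank 46 of 270) and -0.0761 ± 0.0178 for 4933407K13Rik (limma, adjusted p = 0.00451, rank 116). Of all genes 49.6% were called lower, with a median change of -0.0658. Firre kept 54.9% of its odds and 4933407K13Rik 73.5%, beside a median gene at 75.1%.

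Set against WT, the SPOCmut response was smaller for both. SPOCmut minus WT was 0.254 ± 0.0125 for Firre (limma, adjusted p = 2.38e-07) and 0.143 ± 0.0281 for 4933407K13Rik (limma, adjusted p = 0.00141), with 58.5% of genes called higher. Set against SpenKO, the SPOCmut response of Firre was more negative, by -0.134 ± 0.0125 (limma, adjusted p = 8.26e-05). For 4933407K13Rik the difference was -0.0416 (95% interval -0.104 to 0.0207, limma adjusted p = 0.314), so it was not resolved. In that contrast 23% of genes were called lower. Tested against a minimum difference of 0.1, the Firre difference between SPOCmut and SpenKO and the 4933407K13Rik difference between SPOCmut and WT did not pass (limma adjusted p of 0.314 and 0.257).

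**Figure D2:**
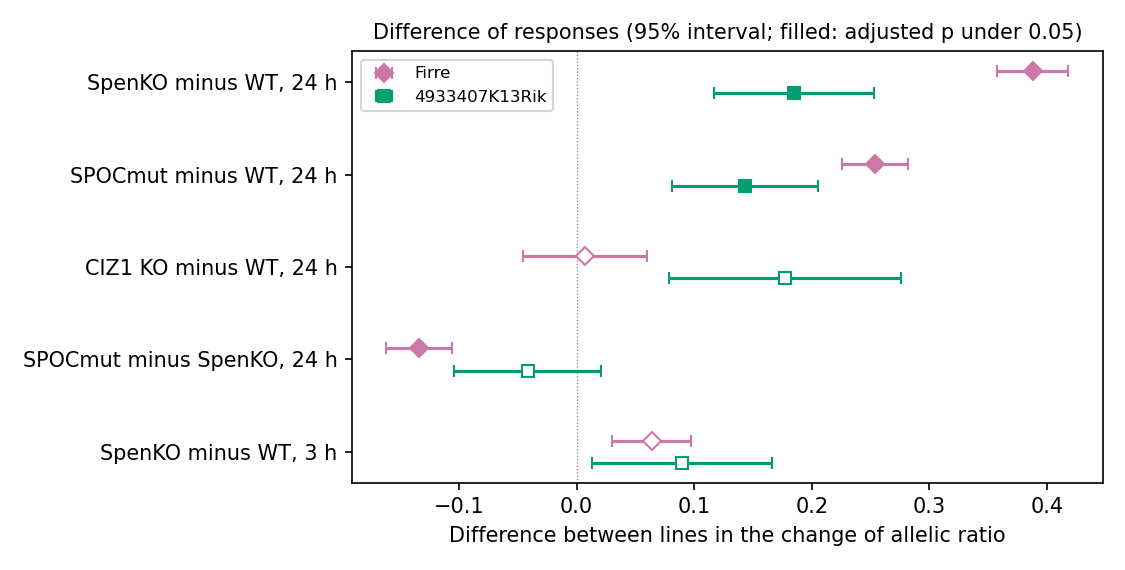
Difference between lines in the change of allelic ratio (horizontal axis) with its 95% interval for Firre and 4933407K13Rik in 5 comparisons of responses (rows); filled symbols passed an adjusted p of 0.05 in limma. CIZ1 KO minus WT is 0.00720 for Firre and 0.177 for 4933407K13Rik, both open.

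In CIZ1 KO Firre fell after 24 h, and 4933407K13Rik was not called. Firre had 0.261 and 0.247 in CIZ1 KO at 24 h, against 0.641 and 0.651 at 0 h. 4933407K13Rik had 0.406 and 0.388 at 24 h, against 0.476 and 0.402 at 0 h. The 24 h libraries of Firre lay far below those at 0 h, while 91.7% of all genes were also apart in this direction, and those of 4933407K13Rik overlapped them. Firre changed by -0.392 ± 0.0152 (limma across 254 genes, adjusted p = 7.72e-05, rank 10 from the most negative), and 85% of genes were called lower, with a median change of -0.207. 4933407K13Rik changed by -0.0421 ± 0.0283 (95% interval -0.112 to 0.0275, limma adjusted p = 0.199, rank 241 of 254). It kept 84.1% of its odds, against 18.7% for Firre and 40.6% for the median gene.

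The 2 CIZ1 KO libraries at 0 h decide that last value. Without the second (0.402) the change of 4933407K13Rik was -0.0790 (limma adjusted p = 0.0292), and without the first (0.476) it was -0.00533. The mean at 0 h was 0.439 ± 0.0521 (SD, n = 2), the widest spread of either gene in any group.

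**Figure D3:**
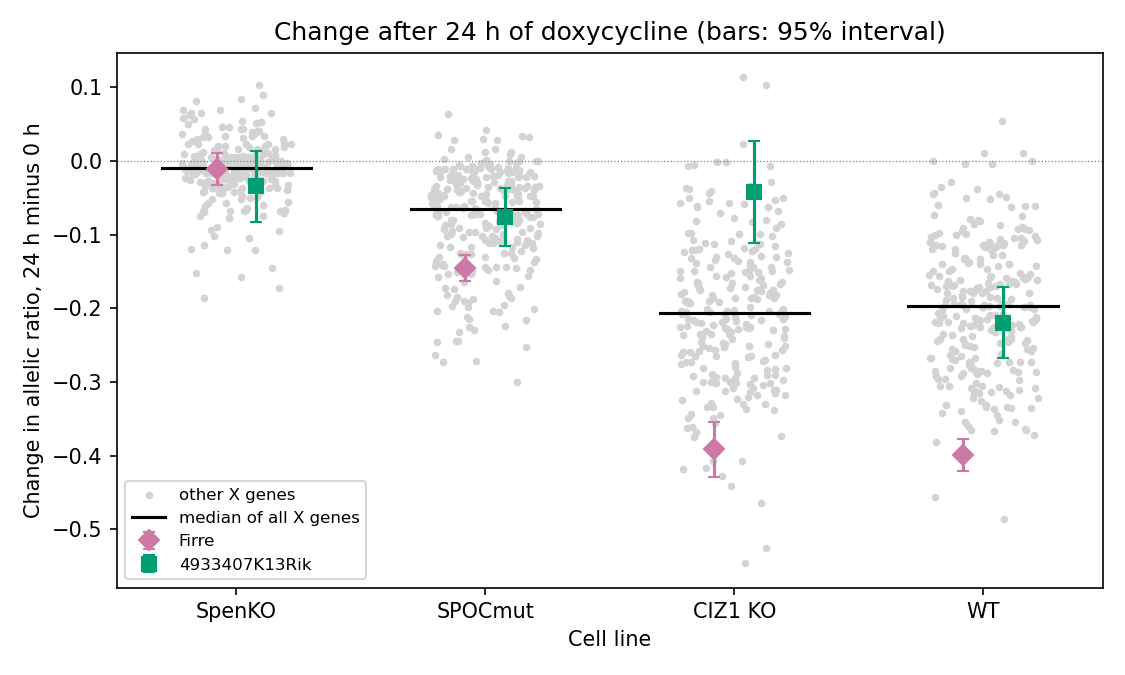
Change in allelic ratio after 24 h of doxycycline (vertical axis) in SpenKO, SPOCmut, CIZ1 KO and WT (horizontal axis); grey points are the other X genes, black lines the median of all X genes, and diamonds and squares the 2 members with 95% intervals. Firre lies below the median line in SPOCmut (-0.145 against -0.0658), CIZ1 KO (-0.392 against -0.207) and WT (-0.399 against -0.197), and 4933407K13Rik lies above it in CIZ1 KO (-0.0421).

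For the response of CIZ1 KO minus that of WT no gene was called in either direction (0%), while at an unadjusted p under 0.05 limma gave 4 lower and 7 higher. For Firre the difference was 0.00720 (95% interval -0.0458 to 0.0602, limma adjusted p = 0.926). For 4933407K13Rik it was 0.177 ± 0.0400 (95% interval 0.0788 to 0.276), with a p of 0.00472 that did not survive adjustment over 254 genes (limma adjusted p = 0.477). It ranked 250 of 254 from the lowest difference, and its adjusted p over the alternatives tried ran between 0.0857 and 1.

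That difference was made of 2 parts of opposite sign. At 24 h 4933407K13Rik was higher in CIZ1 KO than in WT by 0.0955 ± 0.0283 (limma, unadjusted p = 0.0156, adjusted p = 0.418), with 0.406 and 0.388 in CIZ1 KO against 0.293 and 0.309 in WT. At 0 h the CIZ1 KO minus WT difference was -0.0819 ± 0.0283 (limma, unadjusted p = 0.0284, adjusted p = 0.663), with 0.476 and 0.402 in CIZ1 KO against 0.537 and 0.504 in WT. Groups overlapped at neither time, and neither difference passed the adjusted threshold. Of all 254 genes, 26.8% were likewise higher in both CIZ1 KO libraries at 24 h, and 11% lower in both at 0 h. Firre differed by 0.0246 at 24 h (limma adjusted p = 0.720) and by 0.0174 at 0 h (limma adjusted p = 0.744). No gene was called at 24 h (0%; 4 lower and 21 higher unadjusted) or at 0 h (0%; 4 lower and 12 higher unadjusted).

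Without doxycycline the Spen lines stood close to WT. SpenKO minus WT was 0.0301 for Firre (limma, unadjusted p = 0.0106, adjusted p = 0.319) and 0.0227 for 4933407K13Rik (limma adjusted p = 0.867). SPOCmut minus WT was 0.0206 for Firre (limma adjusted p = 0.390) and -0.0308 for 4933407K13Rik (limma adjusted p = 0.567). Every mutant library had a higher Firre ratio than either WT library at 0 h, as held for 9.68% of the 248 genes in both tables. The median gene was also higher, by 0.0116 in SpenKO, 0.0114 in SPOCmut and 0.00903 in CIZ1 KO. No gene was called at 0 h in SpenKO (0%; limma at an unadjusted p under 0.05 gave 4 lower and 18 higher) or SPOCmut (0%; 8 lower and 26 higher).

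The gap between the members stayed positive in SpenKO and SPOCmut and turned negative in CIZ1 KO. In SpenKO it averaged 0.138 ± 0.0226 at 24 h, against 0.115 ± 0.0211 at 0 h (SD, n = 2 each, two-sided exact permutation p = 0.667). In SPOCmut it was 0.0901 ± 0.0121 at 24 h, against 0.159 ± 0.0242 at 0 h (SD, n = 3 each). The unpaired exact permutation p was 0.1, the smallest that 3 against 3 allows, although the same clones were sampled at both times. By clone the gap fell from 0.156 to 0.0780 in C10, 0.137 to 0.102 in C2 and 0.185 to 0.0902 in G1. In CIZ1 KO it was -0.142 ± 0.00230 at 24 h, against 0.207 ± 0.0589 at 0 h (SD, n = 2 each), for which the exact permutation p was 0.33, again the smallest the design allows. Firre was therefore the lower of the members at 24 h in CIZ1 KO and WT, and the higher in SpenKO and SPOCmut.

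Ordered over the 12 groups, Firre ran high to low through SpenKO 0 h, SPOCmut 0 h, SpenKO 24 h, CIZ1 KO 0 h, SpenKO 3 h, WT 0 h, WT 3 h, SPOCmut 24 h, CIZ1 KO 24 h, WT 24 h, CIZ1 KO NPC and WT NPC. The libraries of the first 4 groups overlapped from each neighbour to the next, as did SpenKO 3 h with WT 0 h. All later neighbours were apart, the NPC groups with 1 library each. The order for 4933407K13Rik was SpenKO 0 h, SpenKO 3 h, WT 0 h, SpenKO 24 h, SPOCmut 0 h, CIZ1 KO 0 h, WT 3 h, SPOCmut 24 h, CIZ1 KO 24 h, WT 24 h, CIZ1 KO NPC and WT NPC. There every neighbour overlapped the next as far as SPOCmut 24 h, and the groups after it were apart. The levels of CIZ1 KO and the NPC come from the CIZ1 table and those of the Spen lines from the Spen table.

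In NPC the members were lower still, yet above most other X genes. Firre had 0.180 in the CIZ1 KO NPC library and 0.156 in the WT NPC library, against means of 0.254 and 0.230 at 24 h in ES cells of the same lines. 4933407K13Rik had 0.161 in CIZ1 KO NPC and 0.0935 in WT NPC, against 0.397 and 0.301 at 24 h. The ratio of 98.8% of the 254 genes in CIZ1 KO, and of 95.3% in WT, was lower in NPC than at 24 h. These groups of 1 library each are described without a test.

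In the single NPC library of each line Firre was the higher member, as at 0 h, by 0.0187 in CIZ1 KO and 0.0625 in WT. The CIZ1 KO value is less than the SD of the gap in that line at 0 h (0.0589, n = 2). Firre moved less between 24 h and NPC, by -0.0744 in CIZ1 KO and -0.0736 in WT, than the median gene, by -0.195 and -0.201. 4933407K13Rik moved by -0.236 in CIZ1 KO and -0.208 in WT. Of the 254 genes, 78.7% had a lower ratio than Firre in CIZ1 KO NPC and 75.6% in WT NPC, where the library medians were 0.0830 and 0.0546. For 4933407K13Rik the shares were 75.6% in CIZ1 KO NPC and 62.6% in WT NPC. In odds relative to 0 h, Firre stood at 12% in CIZ1 KO NPC and 10.9% in WT NPC, 4933407K13Rik at 24.6% and 9.50%, and the median gene at 8.24% and 5.70%.

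The nearest measured genes were compared next, 5 on each side by gene start. Around Firre, 8 of the 9 measured neighbours were called lower in CIZ1 KO at 24 h (median -0.184), and in SPOCmut 9 of 10 (median -0.111). In WT at 24 h 8 of 10 were called lower (median -0.230), and at 3 h 1 of 10. None of these changed by as much as Firre in CIZ1 KO or WT at 24 h, while 2 did in SPOCmut. These counts compare with 85% of all genes called lower in CIZ1 KO, 49.6% in SPOCmut, 88.9% in WT at 24 h and 17% at 3 h. The neighbours in WT at 24 h ran between -0.364 for Hs6st2, a heparan sulfate sulfotransferase, and -0.00388 for Frmd7, a FERM-domain gene with a ratio of only 0.00388 at 0 h. With 10 genes on each side, 1 neighbour changed by more than Firre in CIZ1 KO (Elf4, -0.407, against -0.392 for Firre), 2 in SPOCmut and 0 in WT at 24 h.

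Around 4933407K13Rik, 9 of 10 neighbours were called lower in CIZ1 KO at 24 h (median -0.170), and in SPOCmut 5 of 10. In WT all 10 were called lower at 24 h (median -0.163), and at 3 h 5 of 10. Apart from the 3 h count, which lay above the 17% of all genes, these were close to the shares of all genes given for Firre. In CIZ1 KO all 10 had a more negative change than 4933407K13Rik, between -0.337 for Pls3 and -0.0432 for Brcc3, a deubiquitinase subunit, and in WT 3 of the 10 did. Pls3, the actin-bundling plastin 3, is the nearest, with a start 0.0602 Mb away, and its ratio changed by -0.343 in WT. With 10 genes on each side, all 19 measured neighbours of 4933407K13Rik in CIZ1 KO had a more negative change than it, and in WT 6 of 20 did. The medians over the 20 neighbours in WT at 24 h were -0.247 around Firre and -0.170 around 4933407K13Rik.

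**Figure D4:**
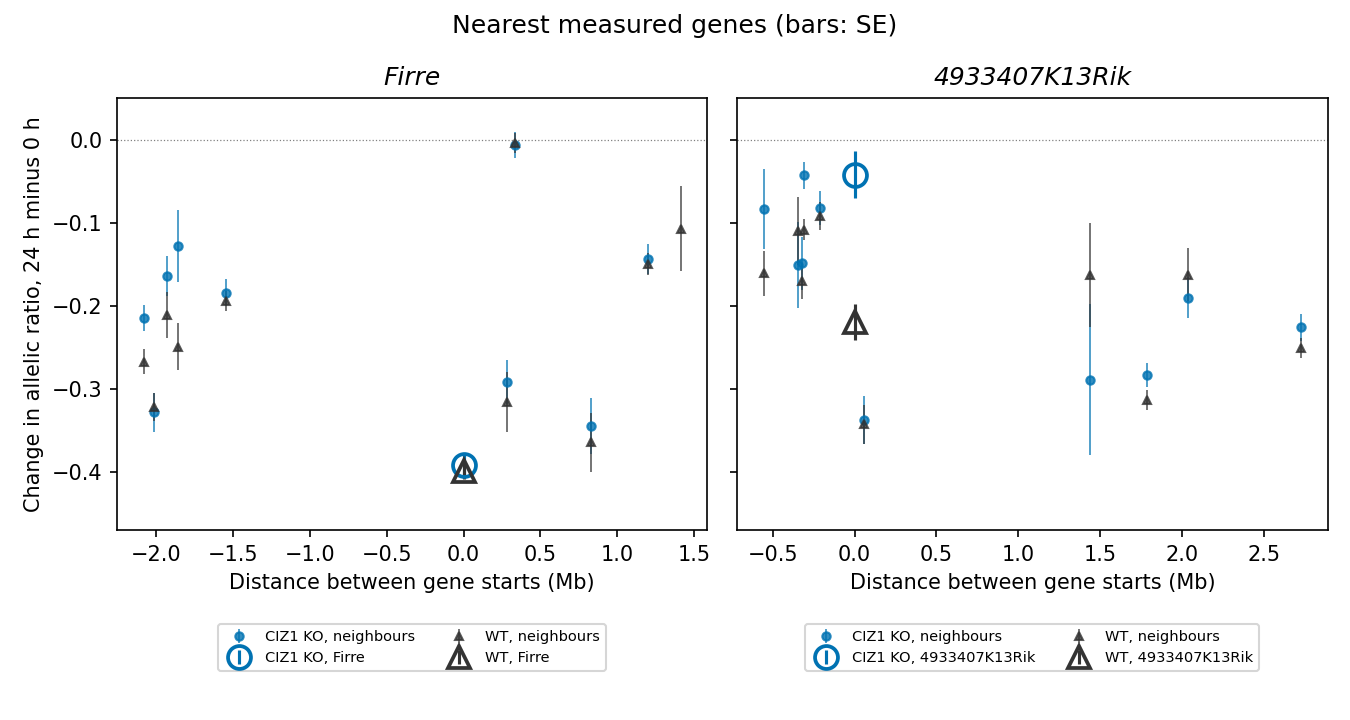
Change in allelic ratio between 0 h and 24 h (vertical axis) of the 5 measured genes on each side of Firre (left) and 4933407K13Rik (right) in CIZ1 KO (circles) and WT (triangles), by distance between gene starts in Mb (horizontal axis); small symbols are neighbours, large open symbols the members, bars the SE. In CIZ1 KO the member 4933407K13Rik (-0.0421) lies above all 10 of its neighbours.

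Genes with the most similar profile were found as those with the smallest root mean square difference in ratio relative to the 0 h mean of the line, over the 17 libraries of the Spen table. For Firre these were Dmd (0.0274, Pearson r = 0.99), Zmym3 (0.0376), Fam122b (0.0394), Pls3 (0.0409) and Tex11 (0.0412), against a median of 0.0937 over all genes. For 4933407K13Rik they were Kif4 (0.0225, r = 0.955), Tab3 (0.0257), Snx12 (0.0269), Fmr1nb (0.0282) and Prrg1 (0.0283), against a median of 0.0629. The difference between the members was 0.0702 (r = 0.946), which put 4933407K13Rik at place 62 of 269 in the order for Firre and Firre at place 165 in the order for 4933407K13Rik. Libraries of a group share their mean, so r describes the group pattern and has no p.

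Over the 10 libraries of the CIZ1 table the difference between the members was 0.187 (r = 0.760), at places 204 and 237 of 253 in the same orders. There the genes closest to Firre were Elf4 (0.0293), Nhsl2, Tex11, Hs6st2 and Cul4b. Those closest to 4933407K13Rik were Hmgb3 (0.0495), Yipf6, Ids, Fmr1 and Brcc3. The lists of 5 from the 2 tables share 1 gene, Tex11, for Firre and none for 4933407K13Rik.

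Related genes on the X gave the context, read against the shares of all genes called lower at 24 h, 0.741% in SpenKO, 49.6% in SPOCmut, 85% in CIZ1 KO and 88.9% in WT. Of the X inactivation centre list, 4 of 14 genes were measured, Xist among them. At 24 h 3 were called lower in CIZ1 KO and 3 in WT (median changes -0.259 and -0.242, against -0.207 and -0.197 over all genes). The gene not called lower was Xist, the induced gene, which changed by 0.0232 in CIZ1 KO and 0.0106 in WT. Tsix, the antisense partner of Xist whose reads may include some of Xist where strand was not used in counting, changed by -0.145 ± 0.0211 in SpenKO (limma, adjusted p = 0.00900) and by -0.296 ± 0.0211 in WT (limma, adjusted p = 2.52e-07). The SpenKO call of Tsix was not held by every setting: with the replicate block, and on the SpenKO libraries of the comparison alone, 0 genes of the table were called in SpenKO, and likewise without the second 0 h library or without either 24 h library. Of the list, 2 were called lower in SPOCmut at 24 h and 2 in WT at 3 h, where 17% of all genes were called lower.

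Of the list of genes known to escape X inactivation, 9 of 18 were measured, among them Xist, the induced gene. In CIZ1 KO 8 were called lower at 24 h (median -0.135), in SPOCmut 1, in SpenKO 0 (limma; adjusted over the table), and in WT 8 (median -0.133). In CIZ1 KO and WT the gene not called lower was Xist (0.0232 and 0.0106), so every other measured gene of the list was called. The CIZ1 KO and WT counts lay near the shares over all genes, with medians closer to 0 than those of all genes. The SPOCmut count of 1 of 9 lay below the 49.6% of all genes, with a median of -0.0100 against -0.0658. At 3 h in WT 3 of the 9 were called higher and 0 lower, against 5.19% and 17% of all genes. Both members were called lower, though not when fitted on the 0 h and 3 h libraries alone. In WT at 24 h Firre changed by -0.399, against -0.0291 ± 0.00868 for the escape gene Kdm6a, which encodes a histone demethylase (limma, adjusted p = 0.00871). The largest change of the list was that of Shroom4, at -0.175 ± 0.0163.

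Of 17 X-linked genes for chromatin folding and heterochromatin proteins, 13 were measured. They include Stag2, a cohesin subunit, and Smarca1, a nucleosome remodeller. In CIZ1 KO 12 were called lower at 24 h (median -0.235), in SPOCmut 7, in SpenKO 0 and in WT 12 (median -0.197). These shares lay near those over all genes, and the WT median was that of all genes. In WT Stag2 changed by -0.197 ± 0.0236. Smarca1 had the largest change of the list, -0.456 ± 0.0589, and was more negative than Firre. At 3 h in WT 4 were called lower, against 17% of all genes.

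Of 20 other genes without a descriptive symbol, 0 were called lower at 24 h in SpenKO, 11 in SPOCmut, 14 of the 17 measured in CIZ1 KO, and 17 in WT (median -0.215), again near the shares over all genes. At 3 h in WT 0 of the 20 were called lower and 1 higher, against 17% and 5.19% of all genes. Of 14 X genes marking feeder fibroblasts 10 were measured, and 9 were called lower in CIZ1 KO at 24 h, 7 in SPOCmut, 0 in SpenKO and 9 in WT (over all genes 85%, 49.6%, 0.741% and 88.9%). Of 10 neural X genes, 3 of 4 measured were called lower in CIZ1 KO and 3 of 3 in WT. The part of feeder or neural RNA in the members' ratios was not tested, since the tables hold no levels.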

How the data were processed

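The authors deposited, for each X-linked gene and library, an allelic ratio as a fraction between 0 and 1. Per the submitters' processing notes, the tools were STAR 2.4.2a, Bowtie2 2.3.2, SAMtools, bedtools, featureCounts and edgeR, with build mm10. What each did, the strand setting, the handling of multi-mapped reads and the gene filters are not given in the sources at hand. Per the labels' protocols, the RNA kit used keeps strand. Columns marked as treated without a time were taken as 24 h, the time the labels give those samples. The chromosome 15 table was not used here.

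Raw ratios were fitted with limma 3.58.1 (R 4.3.3), all libraries of a table in 1 fit with group means, no replicate block and no filter. P-values were adjusted by Benjamini and Hochberg over all genes of the table and called under 0.05; the fit was tested on simulated data. Differences of responses were interaction contrasts. Gaps were compared by two-sided exact permutation (SciPy 1.17.1) without pairing, also for the SPOCmut clones. The depth behind each ratio is unknown, and the 1 to 3 libraries per group limit the precision. Members, gene lists and tests were chosen with earlier results of these data known. Beside the members, the text names neighbours, the 5 genes with the most similar profile and genes of the lists. Stag2 was picked from its list for its known role. Tsix and Smarca1 had the largest absolute change of their lists in WT at 24 h. Kdm6a had the smallest of the chromatin list, so these 3 are extremes of the same data. Alternatives were the logit and arcsine scales, fits on fewer libraries or genes, other prior, weight and adjustment choices, a minimum change of 0.1, the replicate block and leaving out each library. The SPOCmut replicates pair by clone name, since the same clone was sampled at both times, although the deviations of the 3 pairs correlated at only -0.017, -0.113 and 0.148. In the other lines the numbers are shared without a stated pairing.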

Additional observations from a re-analysis of the deposited data

Results flagged for a closer look

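Each result here is a response to 24 h of doxycycline that differed between 2 lines by a limma interaction contrast (adjusted p under 0.05). For Firre, SpenKO minus WT was 0.388 and SPOCmut minus WT 0.254, since its ratio was 0.647 at 24 h in SpenKO and 0.504 in SPOCmut, against 0.230 in WT. For 4933407K13Rik, SpenKO minus WT was 0.185 and SPOCmut minus WT 0.143, with 0.509 at 24 h in SpenKO and 0.414 in SPOCmut, against 0.301 in WT. Over all genes 76.7% had a response called higher for SpenKO minus WT (median 0.183) and 58.5% for SPOCmut minus WT (median 0.121), so the values of 4933407K13Rik lay near those of the median gene, at ranks 137 and 182 of 270 from the lowest, and those of Firre at ranks 266 and 256. SPOCmut minus SpenKO was -0.134 for Firre (rank 44; 23% of genes called lower, median -0.0571), and 4933407K13Rik did not pass that contrast.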

How the results depend on the processing

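Of 470 alternative values for 30 results of the members, 458 kept the direction and side of the threshold. The 22 alternatives for the gap all kept its direction. No threshold was compared for the gap, since its exact permutation p, taken without pairing, cannot fall below 0.1. Fitting the libraries of the comparison alone ended the 3 h calls in WT for Firre (-0.0912) and 4933407K13Rik (-0.0997). Testing against a minimum change of 0.1 ended the calls for Firre at 3 h in WT (-0.0912) and for SPOCmut minus SpenKO (-0.134), and for 4933407K13Rik at 3 h (-0.0997) and for 24 h minus 3 h (-0.120) in WT, at 24 h in SPOCmut (-0.0761) and for SPOCmut minus WT (0.143). The minimum change is a stricter null, which a change within 0.1 cannot pass. Fewer libraries alone did not end every call. The 24 h calls in WT were kept on the libraries of the comparison (limma adjusted p = 0.00237 for Firre and 0.00308 for 4933407K13Rik). Leaving out 1 library at a time, 4933407K13Rik ran between -0.120 and -0.0796 for 3 h minus 0 h in WT, and between -0.0790 and -0.00533 for 24 h minus 0 h in CIZ1 KO, where only the fit without the second 0 h library passed. The CIZ1 KO minus WT difference at 0 h of 4933407K13Rik ran between -0.119 and -0.0450, and the difference of responses between 0.140 and 0.214. The Firre difference of responses, CIZ1 KO minus WT, ran between -2.77e-05 and 0.0144 and changed sign without the first CIZ1 KO library at 24 h; the cause was not tested.

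With the replicate block the calls of both members were as reported in 28 of 28 cases (for example SPOCmut 24 h minus 0 h, paired by clone, -0.145 for Firre, limma adjusted p = 0.000116). With the CIZ1 KO numbers crossed, a pairing added after seeing the data, 217 genes were called lower in CIZ1 KO at 24 h, against 216 as reported.

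Counts over all genes moved more. The lowest and highest over all settings were 2 and 61 for 3 h in WT (60 reported) and 166 and 243 for 24 h in WT (240). They were 153 and 232 for 24 h minus 3 h in WT (232), and 154 and 218 for 24 h in CIZ1 KO (216). At 24 h they were 28 and 141 in SPOCmut (134), and 0 and 5 in SpenKO (2). For differences of responses they were 125 and 214 for SpenKO minus WT (207), 35 and 166 for SPOCmut minus WT (158), 1 and 73 for SPOCmut minus SpenKO (62), 0 and 7 for SpenKO minus WT at 3 h (7), and 0 and 2 for CIZ1 KO minus WT (0). For CIZ1 KO minus WT at 0 h they were 0 and 4 (0). The unknown depth limits what a ratio near 0 can show.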
